A study of Homo sapiens with 2 samples.

Results

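Chemokines of the CXC and CC families were followed in MDA-MB-231 cells with and without knockdown of the RNA-binding protein RBMS1. The members were chosen by name and comprise 10 of the 49627 genes listed: CXCL1, CXCL2, CXCL3, CXCL5, CXCL6, CXCL8, CXCL16, CCL2, CCL5 and CCL20. MDA-MB-231 is a line of human breast cancer cells of the triple-negative type, and RNA-seq was performed on 1 library of RBMS1 knockdown cells and 1 library of control cells, both grown in L15 medium with serum. The study's methods describe stable lines made with lentiviral shRNA in the pLKO.1 plasmid under puromycin selection, with the empty vector as negative control, so the control line as described carries the same plasmid without an shRNA. Neither the shRNA used for this library nor any cytokine treatment is given in the labels. With 1 library per group the differences have no replicate check, and no test was possible between the groups.

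Chemokines are small secreted proteins that attract leukocytes along a gradient by binding G protein-coupled receptors. CXCL1, CXCL2, CXCL3, CXCL5, CXCL6 and CXCL8 carry a Glu-Leu-Arg (ELR) motif before their first cysteines and act on neutrophils through CXCR1 and CXCR2. CXCL16 is made as a membrane-bound ligand of CXCR6 and can be shed, CCL2 attracts monocytes through CCR2, CCL5 attracts T cells and monocytes, and CCL20 is the ligand of CCR6. In epithelial and tumor cells the genes of many inflammatory chemokines are induced by IL-1 and TNF through NF-κB, and their mRNAs are often short-lived because of AU-rich elements in the 3′ UTR.

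The values are FPKM, that is, fragments counted per kilobase of a transcript and scaled to the size of its library, so levels can be compared between genes. The level of a gene is the sum over its transcripts, and the range in parentheses after a level is the summed interval of Cufflinks, which covers uncertainty within a library only. Depth in reads is unknown. Each FPKM stood for a median coverage of 12.3 in knockdown and 11.3 in control, so low genes were measured with similar precision in both. RBMS1 was at 24.1 FPKM (21.7 to 27.7) in control and 3.76 FPKM (3.12 to 5.39) after knockdown, which is 15.6% of control the direction the labels give. All 6 genes chosen as present in this line were above a mean of 1 FPKM, led by VIM at 496 and 563 FPKM in the knockdown and control libraries. Of 6 genes chosen as low or absent, 3 were also above it, in the same order of libraries ERBB2 with 7.50 and 7.0 FPKM, GATA3 with 2.11 and 1.56 FPKM and EPCAM with 1.93 and 3.66 FPKM. Of 13 markers of leukocytes, endothelium and stroma, 7 were listed at 0 in both libraries and none passed 0.968 FPKM, with sums of 2.12 FPKM after knockdown and 1.80 FPKM in control. In bulk RNA, fewer cells of a kind and less RNA per cell cannot be told apart.

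The promoters of these genes share a sequence that the choice of members did not use. RefSeq promoters on GRCh38.p14, from 250 bases before to 50 bases after the start of the gene, were given for 7 of the 10 members, namely the 6 ELR chemokines and CCL20. The 10 bases GGGAATTTCC, which form a classical NF-κB site, occurred in 5 of them, and the 9 bases GGAATTTCC within it also occurred in CXCL8. Each stretch of 30 bases is shown on the strand of its gene, with the shared bases in capitals, because these 6 genes include the 4 ELR chemokines with the higher levels.
CXCL1 (chr4:73869304-73869333, plus strand): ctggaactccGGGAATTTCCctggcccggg
CXCL2 (chr4:74099254-74099283, minus strand): ctggagctccGGGAATTTCCctggcccggg
CXCL3 (chr4:74038749-74038778, minus strand): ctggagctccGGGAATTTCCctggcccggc
CXCL5 (chr4:73998749-73998778, minus strand): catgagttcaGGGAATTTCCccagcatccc
CXCL6 (chr4:73836578-73836607, plus strand): cctgagttcaGGGAATTTCCccagcatccc
CXCL8 (chr4:73740468-73740497, plus strand): tgcaaatcgtGGAATTTCCtctgacataat

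Searched on both strands, GGGAATTTCC was held by 0.145% of 35116 promoters of the same length and GGAATTTCC by 0.461%. These exact letters were picked after the promoters had been read. The general NF-κB consensus was held by 11.3% of the promoters. It matched in the same 5 ELR chemokines, each time as a pair of overlapping hits on both strands that make up 1 place, and at 1 place in CCL20, but not in CXCL8. The box TATAAA was found in CXCL8 and CCL20 and in 11.5% of all promoters.

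The same genes also share their place in the genome. The 6 ELR chemokines lie within 359 kb of chromosome 4 on GRCh38, from 73740506 to 74099293, where GENCODE release 29 has 16 genes, 9 of them protein-coding. From the start of the region they follow as CXCL8, CXCL6, CXCL1, CXCL5, CXCL3 and CXCL2. The other 3 protein-coding genes of the region encode the platelet chemokines PF4V1, PF4 and PPBP, and all 3 were listed at 0 in both libraries. CXCL16, CCL2 and CCL5 are on chromosome 17 and CCL20 is on chromosome 2.

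In the control library the chemokine RNA of this set was mostly CXCL8 and CXCL1. Their levels were 28.2 FPKM (26.3 to 30.2) and 21.6 FPKM (18.8 to 24.5), which were 45.8% and 35.1% of the 61.5 FPKM summed over the 10 members. CXCL2 with 5.49 FPKM (4.66 to 6.63), CXCL3 with 3.17 FPKM (2.25 to 4.31) and CXCL16 with 2.28 FPKM (1.63 to 3.29) followed. The intervals of CXCL3 and CXCL16 overlapped, while each higher member was apart from the next. The remaining 5 members were each under 0.3 FPKM.

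In the knockdown library all 5 of these chemokines were lower, and their sum with the rest was 9.62 FPKM, or 15.6% of control. CXCL8 stayed the highest with 4.18 FPKM (3.64 to 4.96). CXCL1 with 1.81 FPKM (1.15 to 2.61) was level with CXCL2 with 1.76 FPKM (1.31 to 2.49), their intervals overlapping, where in control it had been well above it. CXCL16 had 0.819 FPKM (0.619 to 1.35) and CXCL3 had 0.678 FPKM (0.259 to 1.36), and their intervals overlapped each other as in control. The intervals of CXCL1 and CXCL2 each overlapped those of CXCL16 and CXCL3 here, so of these chemokines only CXCL8 stood apart from the rest. The share of CXCL8 in the summed level was 43.5%, close to its share in control, whereas CXCL1 went from 35.1% to 18.8% and CXCL2 from 8.93% to 18.3%.

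**Figure D1:**
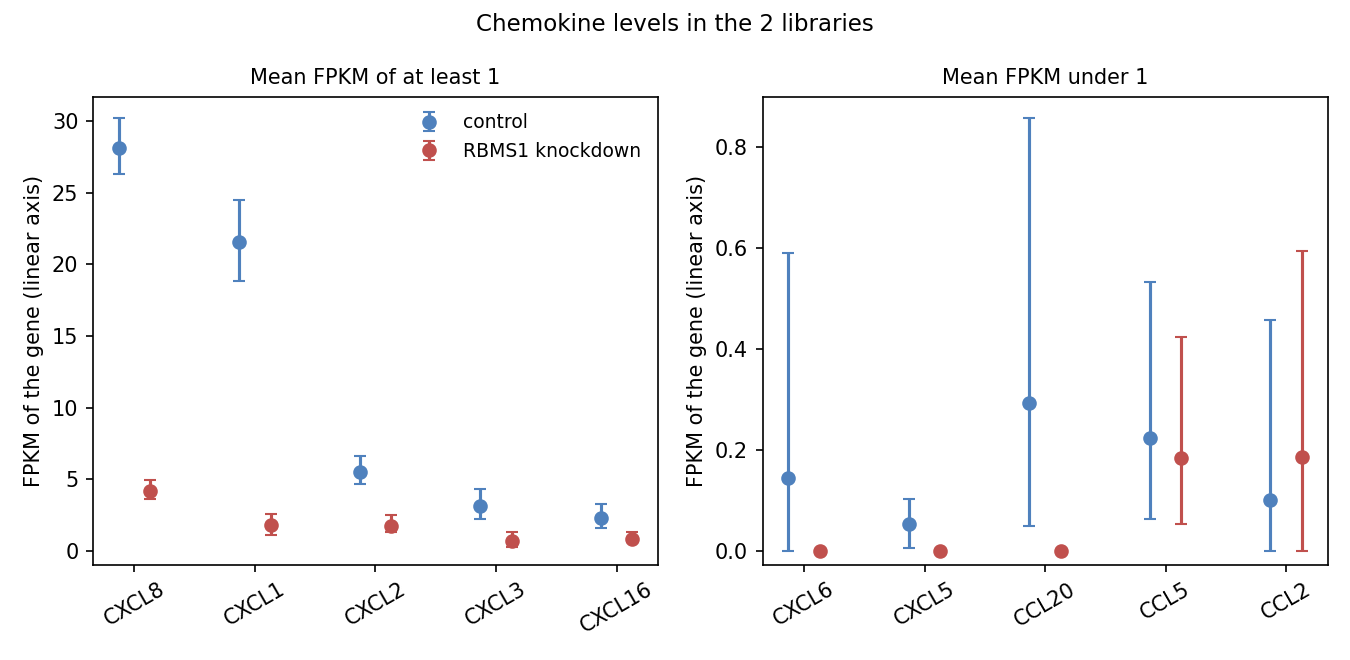
Level of each chemokine (FPKM of the gene, linear axis) in the control library (blue) and the RBMS1 knockdown library (red), with the 5 higher members on the left and the 5 lower ones on the right on a smaller axis. Points are 1 library each, and bars are summed Cufflinks intervals within the library. CXCL8 and CXCL1 stand at 28.2 and 21.6 FPKM in control and at 4.18 and 1.81 FPKM in the knockdown library.

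CXCL1, a ligand of CXCR2, differed most among the members. It was at 8.37% of its control level, an 11.9-fold difference, with a log2 ratio of −3.01 (−3.57 to −2.46). The log2 ratio is that of knockdown over control with 1 FPKM added to both values, which understates the difference of low genes, and its range is set by the interval bounds of both libraries. CXCL1 ranked 60 from the lowest ratio among the 11186 genes with a mean of at least 1 FPKM, and 8 among those above 0 in both libraries. CXCL8, or interleukin-8, was at 14.9% of control with a log2 ratio of −2.49 (−2.75 to −2.20), and ranked 88, or 12 among genes above 0 in both. RBMS1 itself, with a log2 ratio of −2.40, ranked 97 and 14 in the same orders. CXCL3 was at 21.4% of control with a log2 ratio of −1.31 (−2.08 to −0.46), and CXCL2 at 32% with −1.23 (−1.72 to −0.70). CXCL16 was at 35.9% of control with a log2 ratio of −0.85 (−1.40 to −0.17), short of a 2-fold difference on this scale.

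Of the 10 members, 5 had a mean of at least 1 FPKM. Of these 5, 4 were at least 2-fold lower in the knockdown library, beside 2.8% of the 11186 genes with such a mean, and 0 were at least 2-fold higher, beside 2.96%. With no minimum it was 4 of 10, beside 1.9% of the 22368 genes above 0 in a library. With 5 FPKM added to both values 2 of the 5 members were at least 2-fold lower, CXCL2 and CXCL3 being lost, beside 1.19% of the genes. With 0.1 FPKM added or as TPM all 5 were, beside 3.77% and 4.89% of the genes. All 5 had intervals that did not overlap between the libraries, which 24.7% of the 11186 genes had. With reference transcripts only, or with the dominant transcript only, 4 of the 5 did, the intervals of CXCL16 then overlapping. The 24.7% belongs to the reported computation, and no such share over all genes is given for these settings. Lower levels with intervals apart were found for 11.5% of the 11186 genes, and 2.46% were at least 2-fold lower with intervals apart. The median log2 ratio of the 11186 genes was 0.02. CXCL3 and CXCL16 reached the mean of 1 FPKM only through the control library, so a lower level in the knockdown library was built into their passing, and the counts describe the members without supporting a direction. CXCL1, CXCL2 and CXCL8 were above 1 FPKM in both libraries.

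The other 5 members gave values too low to compare. CCL20 had 0.293 FPKM (0.0492 to 0.857) in control and was listed at 0 after knockdown. CXCL5 with 0.0541 FPKM and CXCL6 with 0.145 FPKM in control were likewise listed at 0 after knockdown. No fold is given for these 3, since a value of exactly 0 can be a failed estimate. ELAVL1, which encodes the broadly expressed RNA-binding protein HuR, was also listed at 0 in both libraries, and it is named here because of that value. CCL2 had 0.186 FPKM (0 to 0.594) in the knockdown library and 0.10 FPKM (0 to 0.458) in control, and CCL5 had 0.183 FPKM (0.0527 to 0.423) and 0.224 FPKM (0.0640 to 0.533). The intervals of CCL2 and CCL5 overlapped almost entirely. The CCL5 reads were given to different transcripts in the 2 libraries, ENST00000603197 in the knockdown library and ENST00000605140 in control.

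CXCL1, CXCL2 and CXCL3 arose by duplication, and reads may be divided between near-identical copies. Their coding sequences are 93.5% identical between CXCL1 and CXCL2, 90.7% between CXCL1 and CXCL3, and 94.4% between CXCL2 and CXCL3. Over whole transcripts, 5.73% of the 50-base stretches of CXCL1 also occur in CXCL2 and 0.573% in CXCL3, and 4.62% of those of CXCL2 occur in CXCL3, so most stretches of that length belong to 1 gene. The read length is not given in the sources used here. The summed level of the 3 genes, which depends less on how reads were split among them, was 4.25 FPKM (2.72 to 6.46) in the knockdown library and 30.3 FPKM (25.7 to 35.5) in control, or 14.0% with a log2 ratio of −2.57. CXCL5 and CXCL6 have coding sequences 87.5% identical and share no 50-base stretch.

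All 6 ELR chemokines together had 8.43 FPKM in the knockdown library and 58.6 FPKM in control, 14.4% of the control level. They made up 87.7% of the summed level of the members in the knockdown library and 95.3% in control. The 3 CC chemokines together had 0.369 FPKM and 0.617 FPKM, with overlapping summed intervals of 0.0527 to 1.02 and 0.113 to 1.85.

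How the ratio of each chemokine moved with the computation is drawn beside the reported value. CXCL1, CXCL2, CXCL3, CXCL8 and CXCL16 were lower in the knockdown library in all 10 computations. These were the reported one and 9 others that changed the pseudocount, the choice of transcripts, the scaling or the source table. A pseudocount cannot change the direction, and all computations use the same 2 libraries, so this agreement does not support a direction. The log2 ratio ranged from −3.51 to −1.97 for CXCL1, from −2.72 to −1.85 for CXCL8, from −2.07 to −0.52 for CXCL3, from −1.59 to −0.63 for CXCL2 and from −1.38 to −0.28 for CXCL16. In each of these genes the value with 0.1 FPKM added was the lowest. CCL20 and CXCL5 were lower in 10 of 10 and CXCL6 in 9 of 9, which follows from their being listed at 0 in the knockdown library. CCL5 was lower in 9 of 10 computations and CCL2 in 0 of 9.

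**Figure D2:**
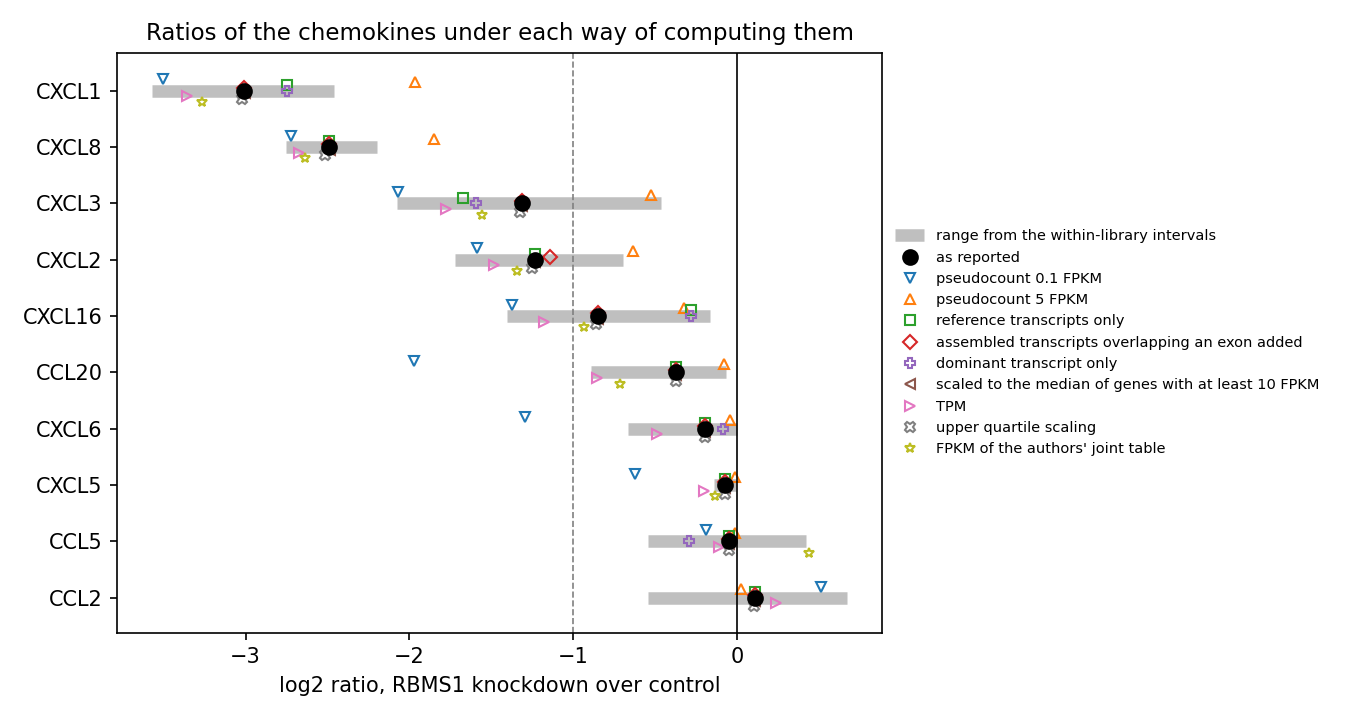
The log2 ratio of knockdown over control (x axis) of each chemokine (rows) as reported (black points) and under the other computations (open symbols), with grey bars for the range set by the interval bounds and a dashed line at a 2-fold decrease. CXCL1 and CXCL8 lie left of the dashed line in every computation, while CCL2 and CCL5 lie around 0.

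The authors' own joint table of both libraries gives FPKM on a scale of its own and holds 8 of the 10 members with 1 transcript each. There CXCL1 had 3.16 and 39.1 FPKM in the knockdown and control libraries, or 8.08% of control, and CXCL8 had 7.54 and 52.1 FPKM, or 14.5%. CXCL3 was at 18.2%, CXCL2 at 34.3% and CXCL16 at 38.1% of control, the same order as from the separate libraries. For CCL5 the joint table has 0.357 FPKM in the knockdown library and lists it at 0 in control, and ENST00000603197 is the only CCL5 transcript it holds. Since that table holds only transcripts past a limit on the authors' p-value, membership in it was not counted as a result.

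At the level of transcripts the members differed. All of CXCL8 was its reference transcript ENST00000307407. For CXCL1, the reference transcript ENST00000395761 had 1.47 FPKM in the knockdown library and 15.6 FPKM in control, and the rest of the control level was a fully spliced assembled transcript of 6.02 FPKM. For CXCL16, the reference transcript ENST00000293778 was at 0.819 and 1.21 FPKM, 67.5% of control, and the rest of the control level, 1.07 FPKM, was an assembled transcript of 4 exons seen in control only. With reference transcripts alone the log2 ratio of CXCL16 was −0.28, while the joint table gives the same transcript 1.27 and 3.33 FPKM, 38.1% of control. The size of the difference in CXCL16 thus depended on how reads were given to transcripts.

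Transcripts that keep an intron were then set apart from those with all introns removed, a split made after the transcripts had been seen. For CXCL2, spliced transcripts had 1.76 FPKM in the knockdown library and 5.49 FPKM in control, 32% of control. In each library a single-exon transcript was assembled across the gene and its introns, of 2699 bases in the knockdown library and 3963 bases in control, and was not counted in the gene level. These models of unlike length had 0.863 FPKM (0.668 to 1.06) and 1.5 FPKM (1.28 to 1.72). For CXCL3, the spliced transcript ENST00000296026 had 2.01 FPKM in control and was listed at 0 after knockdown, and the transcripts that keep an intron had 0.678 and 1.15 FPKM, again as partly different models. That 0 may be a failed estimate, since the joint table gives the same transcript 0.761 FPKM in the knockdown library, 18.2% of control. For CXCL1, spliced transcripts were at 6.82% of control, and a transcript that keeps an intron was assembled at 0.335 FPKM (0.113 to 0.557) in the knockdown library only. As listed in the separate libraries, intron-keeping transcripts were 32.9% of CXCL2 in the knockdown library and 21.4% in control, with the single-exon models counted in. For CXCL1 they were 18.5% in the knockdown library. No share is given for CXCL1 in control, where no such transcript was assembled, which is not a measured level of 0. For CXCL3 no share is given in the knockdown library, and it was 36.5% in control. For CXCL8 none was listed in either library. Unspliced precursor and mature RNA with a retained intron cannot be told apart with these files.

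**Figure D3:**
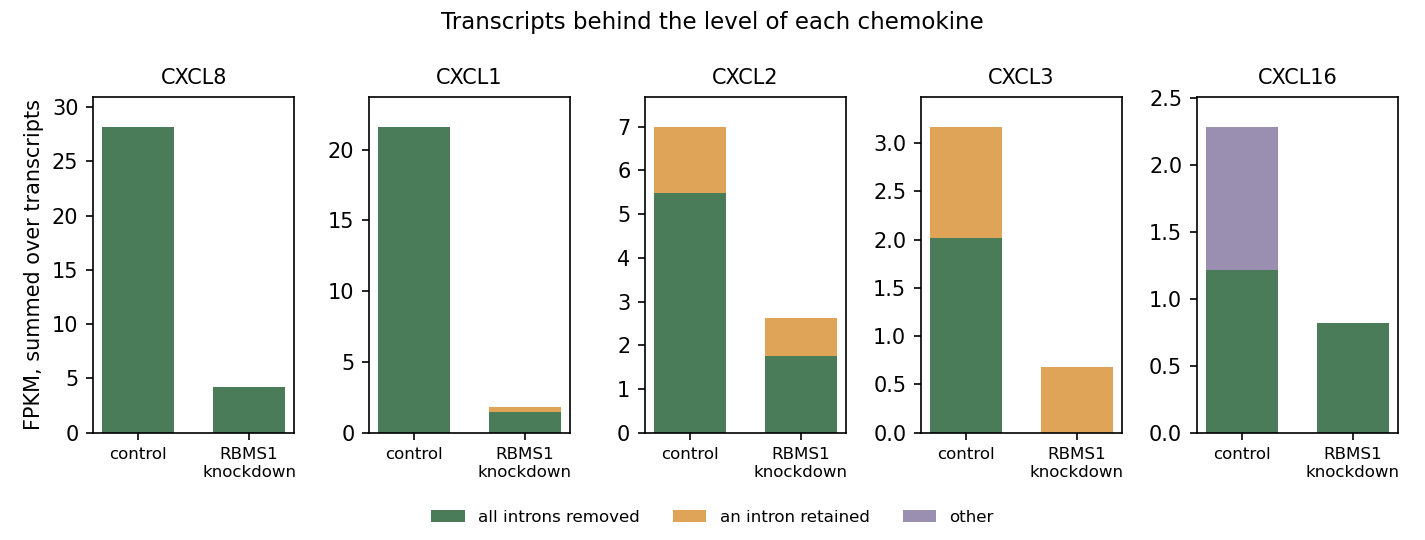
FPKM summed over transcripts (y axis, from 0, a scale for each gene) of the 5 higher chemokines in the control and RBMS1 knockdown libraries, split into transcripts with all introns removed (green), with an intron retained (orange) and other assembled forms (purple). In CXCL2 the green part is 1.76 against 5.49 FPKM and the orange part 0.863 against 1.5 FPKM, and in CXCL3 the knockdown bar has no green part because the spliced transcript is listed at 0 there, while the joint table has it at 0.761 FPKM.

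Copies of ATTTA, the core of AU-rich elements that decay factors bind, were counted in the 3′ UTRs. Within the first 300 bases after the stop codon, read on the mRNA strand with overlaps counted, CXCL2 had 6 copies, CXCL3 4, CXCL1 3, CCL20 2, and CXCL6, CXCL8, CXCL16 and CCL2 1 each, while CXCL5 and CCL5 had 0. Of 8160 genes with a mean of at least 1 FPKM and a 3′ UTR of that length, 37.9% had at least 1 copy, 4.28% at least 3, 1.18% at least 4 and 0.0858% at least 6. Over the whole 3′ UTR the density was 13.9 per 1000 bases in CXCL2, 10.4 in CXCL3, 7.19 in CXCL8, 7.08 in CXCL1, 6.24 in CCL20, 5.51 in CXCL5, 5.36 in CXCL6, 2.66 in CCL2, 1.02 in CXCL16 and 0 in CCL5, and its median over the 8160 genes was 1.94. The richest stretches of 30 bases of the 4 mRNAs that were at least 2-fold lower are shown, with each ATTTA in capitals.
CXCL1 (bases 129 to 158 after the stop codon): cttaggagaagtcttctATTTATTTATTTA
CXCL2 (bases 137 to 166 after the stop codon): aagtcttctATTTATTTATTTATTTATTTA
CXCL3 (bases 143 to 172 after the stop codon): ttacgagggttctacttATTTAtgtATTTA
CXCL8 (bases 644 to 673 after the stop codon): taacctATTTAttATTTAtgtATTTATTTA

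The motif counts describe the reference sequences, and whether they have a part in the levels was not tested.

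Genes that act before and after the chemokines were taken from lists written by role. Their counts stand beside those of all genes with a mean of at least 1 FPKM, of which 47.2% were lower in the knockdown library, 2.8% at least 2-fold lower, 2.96% at least 2-fold higher and 24.7% with intervals apart. With 5 FPKM added, 6 of the genes named below as at least 2-fold lower no longer were, namely IL1B, TNFAIP3, RELB, ZC3H12A, CCL3L1 and MMP14, with log2 ratios of −0.98, −0.52, −0.75, −0.87, −0.47 and −0.94.

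The list of inducers held 25 genes, namely inducing cytokines, cytokine receptors and toll-like receptors. Of these, 16 had a mean of at least 1 FPKM, of which 12 were lower and 4 higher in knockdown cells, and 6 of the 16 had intervals apart. Those at least 2-fold lower were 3 cytokine genes, IL1B, IL1A and IL6, and 0 were at least 2-fold higher. IL1B and IL1A reached the minimum only through the control library. IL1B had 0.570 FPKM (0.371 to 1.55) in the knockdown library and 5.97 FPKM (4.79 to 8.0) in control, with a log2 ratio of −2.15. IL1A had 0.873 FPKM (0.664 to 1.1) and 6.90 FPKM (6.30 to 7.51), with −2.08. IL6 had 5.54 FPKM (4.02 to 7.81) and 19.0 FPKM (17.3 to 21.5), with −1.61. The intervals of all 3 were apart between the libraries. TNF, the other classical inducer, had 0.0694 FPKM in control, was listed at 0 after knockdown, and is named outside the rule for its role.

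Of 19 signal transducers between these receptors and NF-κB, 18 were above the minimum, 12 lower and 6 higher, with a median log2 ratio of −0.12. The 1 past 2-fold was BIRC3, an inhibitor of apoptosis induced by NF-κB, with 9.35 FPKM (8.78 to 10.5) in the knockdown library and 30.9 FPKM (29.4 to 32.9) in control and a log2 ratio of −1.62. Under either narrower choice of transcripts, the reference ones or the dominant one, 2 of the 18 were at least 2-fold lower and 1 at least 2-fold higher. Over all genes above the minimum the shares at least 2-fold lower and higher were then 4.87% and 5.31% with the reference transcripts, and 4.74% and 4.97% with the dominant one.

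All 13 NF-κB subunits and inhibitors were above the minimum and lower in the knockdown library, with a median of −0.53. The intervals of 8 of the 13 were apart, and those of RELA, NFKBIB, NFKBIZ, BCL3 and CYLD, named for their overlap, were not. With reference transcripts only 1 of the 13 was not lower, and with the dominant transcript only 2 of 12 were not. The 3 at least 2-fold lower were TNIP1, an A20-binding inhibitor, with 34.7 and 76.4 FPKM in the knockdown and control libraries (log2 ratio −1.12), TNFAIP3, which encodes the feedback inhibitor A20, with 1.37 and 4.14 FPKM (−1.12), and RELB, a subunit of the non-canonical pathway, with 6.16 and 13.7 FPKM (−1.04). Members of the list that restrain NF-κB and members that form it were thus both lower, and the direction of TNFAIP3 was not kept with the dominant transcript only, where its log2 ratio was 0.03. With reference transcripts only it was −0.56.

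Factors that bind or degrade AU-rich mRNAs showed no common direction. Of 17 genes, 16 were above the minimum, 9 lower and 7 higher, with a median of −0.06. The 2 at least 2-fold lower were ZC3H12A, which encodes the endonuclease Regnase-1, with 2.02 FPKM (1.73 to 2.77) in the knockdown library and 7.81 FPKM (7.15 to 8.94) in control (log2 ratio −1.54), and its relative ZC3H12C with 8.35 FPKM (7.46 to 9.24) and 23.7 FPKM (22.0 to 25.4) (−1.40). ZFP36, which encodes the decay factor tristetraprolin, was higher, with 9.82 FPKM (8.85 to 11.2) and 5.50 FPKM (4.78 to 6.62) and a log2 ratio of 0.74. It was named after its values had been seen. Of its relatives, ZFP36L1 was lower, with 41.2 FPKM (39.1 to 43.6) in the knockdown library and 60.8 FPKM (57.6 to 64.5) in control, a log2 ratio of −0.55. ZFP36L2 had a log2 ratio of −0.03.

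On the side of the receptors, most of 23 genes were at or near 0. CXCR2, a receptor of the ELR chemokines, was listed at 0 in both libraries, and CXCR1, another, at 0 after knockdown and 0.0111 FPKM in control. Only 2 receptors had a mean of at least 1 FPKM, and both were at least 2-fold higher in the knockdown library. With the dominant transcript only 1 of the 2 was, beside 4.97% of genes, and with 5 FPKM added 0 of 2, beside 1.11%. CXCR4, the receptor of CXCL12, had 2.59 FPKM (2.16 to 3.07) and 0.604 FPKM (0.394 to 0.885), with a log2 ratio of 1.16. CCRL2, a non-signaling receptor that binds chemerin, had 12.4 FPKM (10.3 to 14.8) and 4.59 FPKM (3.61 to 5.97), with 1.26. CXCR4 reached the minimum only through the knockdown library.

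Of 36 other chemokine ligands, 24 were listed at 0 in both libraries and 3 had a mean of at least 1 FPKM, 2 lower and 1 higher. The 1 past 2-fold was CCL3L1, which encodes a CC chemokine that attracts monocytes, with 0.0983 FPKM (0 to 0.452) in the knockdown library and 2.05 FPKM (1.30 to 2.97) in control and a log2 ratio of −1.47. It reached the minimum only through the control library. It has near-identical copies in the genome, so its reads may be shared with them. Among 8 proteases that shed or cut chemokines, 4 were above the minimum, 3 lower and 1 higher. MMP1, a secreted collagenase, had 2.59 FPKM (2.20 to 2.98) and 54.3 FPKM (51.5 to 57.2), with a log2 ratio of −3.95, and MMP14, its membrane-bound relative, had 26.1 FPKM (24.8 to 28.2) and 54.6 FPKM (52.0 to 57.9), with −1.03.

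**Figure D4:**
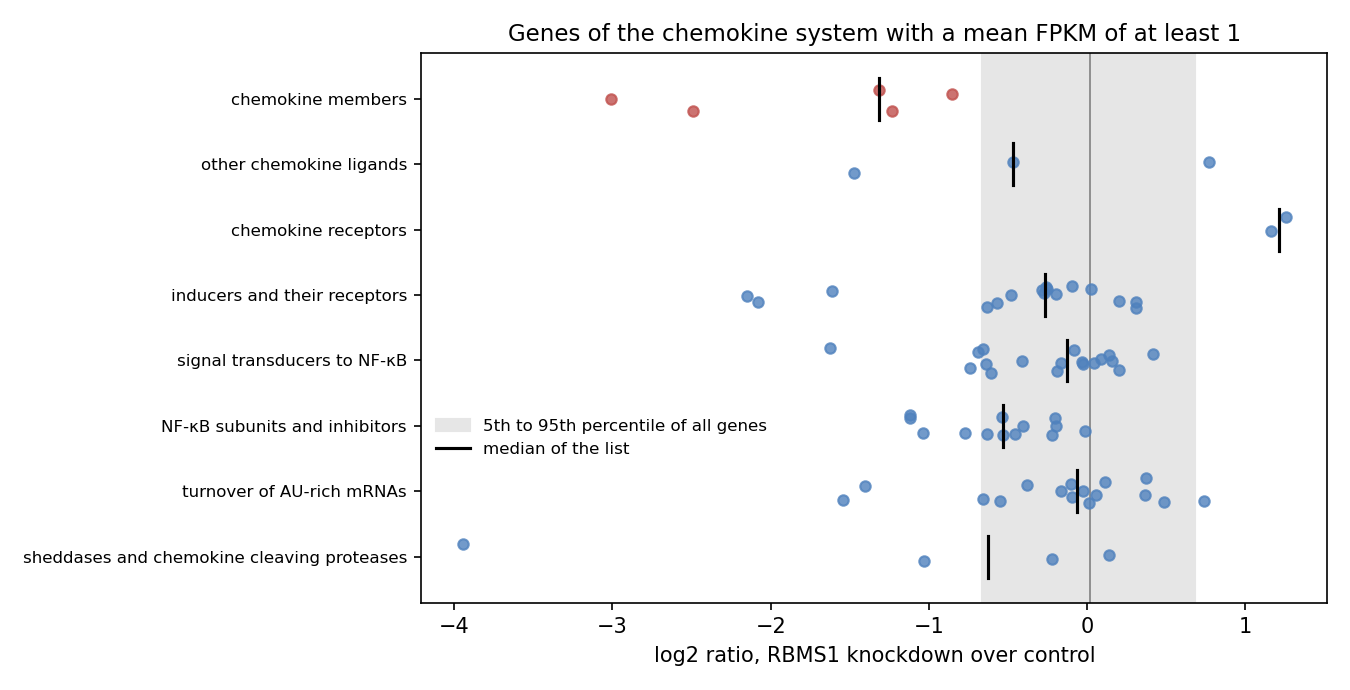
The log2 ratio of knockdown over control (x axis) for every gene of each list (rows) with a mean of at least 1 FPKM, each point 1 gene, with the median of the list as a black line and the 5th to 95th percentile of all genes in grey. CXCL1, CXCL8, CXCL3, CXCL2 and CXCL16 (red) lie left of the grey band, which runs from −0.67 to 0.68. Genes of other lists do so too, among them IL1B, IL1A, IL6, BIRC3, TNIP1, TNFAIP3, RELB, ZC3H12A, ZC3H12C, CCL3L1, MMP1 and MMP14.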

How the data were processed

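RNA-seq was performed on MDA-MB-231 cells, 1 RBMS1 knockdown and 1 control library, grouped by their labels. Per the submitters' processing notes, Bowtie2 2.0.6, TopHat2 2.0.9, Cufflinks 2.1.1 and Cuffdiff 2.1.1 were used. Read length, annotation and strandedness are not given in the sources used here. The authors deposited transcripts of each library with FPKM, intervals and coverage, and a joint table whose FPKM served only as an alternative. Its fold, p-value and q-value columns were not used.

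Reference transcripts were joined by Ensembl identifier to GENCODE release 29, and 98.1% of them started at the annotated GRCh38 position. For each gene, FPKM was summed over reference transcripts and those assembled transcripts sharing at least 1 intron on the same strand. The log2 ratio used a pseudocount of 1 FPKM. Genes with a mean of at least 1 FPKM entered counts, and a log2 ratio at or beyond 1 in either direction counted as 2-fold. No test was possible, and depth in reads is unknown.

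The members and lists were chosen with earlier results of these data known. Named genes were RBMS1, the members, their neighbours PF4, PF4V1 and PPBP, and the genes at or past 2-fold in each list, or the extremes where more than 5 or none passed. Outside this rule, CXCR1, CXCR2 and TNF were named for their role and ELAVL1 and ZFP36 for their values. ZFP36L1 and ZFP36L2 were named beside ZFP36, some NF-κB genes for overlapping intervals, and some markers of cell type. Promoters came from RefSeq (GRCh38.p14). For the 3′ UTR, the coding transcript with the highest mean FPKM was used, or the longest where that was low. The fold computation was tested on simulated levels with counting noise only. Variation between cultures and in how reads are given to transcripts was not simulated. Python 3.11.15, numpy 2.4.6 and pandas 2.3.3 were used.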

Additional observations from a re-analysis of the deposited data

How the results depend on the processing

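No paired analysis was possible because each group holds 1 library, and for the same reason no library could be left out. With 5 FPKM added, the log2 ratio was −1.73 for RBMS1, −1.97 for CXCL1, −0.63 for CXCL2 and −1.85 for CXCL8, and 2 members were at least 2-fold lower. With a mean of at least 5 FPKM required, 2 members remained in the count, both at least 2-fold lower with intervals apart, beside 1.9% of 7248 genes at least 2-fold lower, and their median was −2.75. The median of the members above the minimum, −1.31 as reported, was −2.07 with 0.1 FPKM added, −0.63 with 5 FPKM added, −1.67 with reference transcripts only, −1.59 with the dominant transcript only, −1.78 as TPM and −0.61 with no minimum.

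For the other ligands, −0.47 as reported, the median was −0.76 with 0.1 FPKM added, −0.18 with 5 FPKM added, −0.35 with reference transcripts only, 0.77 with the dominant transcript only, −0.26 as TPM and −0.044 with no minimum. For the receptors, 1.21 as reported, it was 1.67, 0.65 and 1.06 with 0.1 FPKM added, 5 FPKM added and the dominant transcript only, 1.34 as TPM and −0.0021 with no minimum. For the inducers, −0.27 as reported, it was −0.15 with 5 FPKM added and −0.42 with the dominant transcript only, and for the NF-κB list, −0.53 as reported, −0.33 with 5 FPKM added. For the signal transducers, −0.12 as reported, it was −0.24 with the dominant transcript only and −0.33 with reference transcripts only, for the turnover factors, −0.06 as reported, 0.079 with the dominant transcript only, and for the proteases, −0.63 as reported, −0.26 as TPM and −0.18 with no minimum. TNFAIP3 had 0.027 with the dominant transcript only. In the split added after seeing the data, CXCL1 had 0.42 over its intron-keeping transcripts alone, none of which was assembled in control. Over such transcripts CXCL2 had −0.42 and CXCL3 had −0.36. The causes were not tested.

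With a single library per group, the intervals cover estimation within a library and not the spread between cultures. Depth is unknown, and members under 0.3 FPKM could not be compared.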
